A study of Mus musculus with 10 samples.

Results

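The genes described are 10 of the 32285 counted in single cells of the developing mouse lower incisor. They encode the parts of cell-cell junctions that hold epithelial and mesenchymal cells together, and each was taken by its symbol: the classical cadherins *Cdh1* (E-cadherin), *Cdh3* (P-cadherin), *Cdh2* (N-cadherin) and *Cdh11* (OB-cadherin), the desmosomal cadherins *Dsg2*, *Dsc2* and *Dsc3*, and the desmosomal plaque genes *Dsp* (desmoplakin), *Jup* (plakoglobin) and *Pkp1* (plakophilin 1). All 10 were present in the count matrix of every stage. The cells came from wild type NMRI embryos, from whole mandibles at E11.5 and from lower incisor buds dissected at E14.5 or E16.5, where E is the embryonic day. The labels name 4, 4 and 2 samples, the methods name 8, 4 and 2 mandibles from 3, 3 and 2 litters, and tissue was dissociated with collagenase P. The matrix of a stage pools its samples and does not say which cell came from which, so each stage was 1 sample, no test between stages or lineages was possible, and stage, tissue dissected and library cannot be told apart.

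Classical cadherins span the membrane, bind cadherins on the neighbouring cell and hold the actin network through catenins. Desmosomes anchor keratin filaments: desmogleins and desmocollins span the gap, plakoglobin and plakophilins bind their tails, and desmoplakin links that plaque to the filaments. Epithelia typically carry E-cadherin and P-cadherin with desmosomes, while mesenchymal cells typically carry N-cadherin or cadherin 11 without them, and a tooth bud is an epithelium folded into such a mesenchyme.

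The promoters of *Dsp* and *Jup* are shown because these are the 2 of the 10 genes with a promoter in the RefSeq table used here. Both encode proteins of the desmosomal plaque. The sequences are the RefSeq promoters on GRCm38.p6 from 250 bases before to 50 bases after the start, for *Dsp* chr13:38151044-38151343 on the plus strand and for *Jup* chr11:100397741-100398040 on the minus strand. Capitals mark CAGGTG or, on the other strand, CACCTG, the E-box letters that Snail, Zeb and Twist family factors are known to bind.
Dsp: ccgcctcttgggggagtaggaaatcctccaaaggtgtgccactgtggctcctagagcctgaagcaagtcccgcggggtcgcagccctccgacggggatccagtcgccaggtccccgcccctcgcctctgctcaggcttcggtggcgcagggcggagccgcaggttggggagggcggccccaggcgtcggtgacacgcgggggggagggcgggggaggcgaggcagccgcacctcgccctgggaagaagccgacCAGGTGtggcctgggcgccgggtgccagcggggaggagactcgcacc
Jup: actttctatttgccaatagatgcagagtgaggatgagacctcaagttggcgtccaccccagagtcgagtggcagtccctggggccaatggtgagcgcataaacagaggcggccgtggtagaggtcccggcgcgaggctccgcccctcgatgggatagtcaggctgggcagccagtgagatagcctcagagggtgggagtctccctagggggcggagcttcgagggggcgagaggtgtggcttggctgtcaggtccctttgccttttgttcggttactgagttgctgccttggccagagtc
The *Dsp* window holds the letters once, beginning 4 bases after the start, and the *Jup* window does not hold them. Of 32851 mouse promoter windows of the same length, 6640 (20.2%) hold them. The match is a description of letters only, and no binding was measured.

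Gene positions are on GRCm38. *Cdh1* (ENSMUSG00000000303) lies on the plus strand of chromosome 8 at 106603351 to 106670246, and *Cdh3* (ENSMUSG00000061048) is its neighbour on the same strand, at 106510891 to 106557297, with 46.054 kb between them. *Cdh11* (ENSMUSG00000031673) is on the minus strand of the same chromosome at 102632095 to 102785642. *Cdh2* (ENSMUSG00000024304, minus strand, 16588877 to 16809246) shares chromosome 18 with *Dsc3* (ENSMUSG00000059898, minus strand, 19960930 to 20002351), *Dsc2* (ENSMUSG00000024331, minus strand, 20030633 to 20059554) and *Dsg2* (ENSMUSG00000044393, plus strand, 20558074 to 20604521). *Dsc3* and *Dsc2* are 28.282 kb apart. *Dsp* (ENSMUSG00000054889) is on the plus strand of chromosome 13 at 38151294 to 38198577, *Jup* (ENSMUSG00000001552) on the minus strand of chromosome 11 at 100368958 to 100397763, and *Pkp1* (ENSMUSG00000026413) on the minus strand of chromosome 1 at 135871395 to 135919207.

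Cells with 700 or more genes and no more than 20% mitochondrial UMIs (unique molecular identifiers, each a captured RNA molecule) were kept, which left 6573 cells for E11.5, 6091 for E14.5 and 4511 for E16.5. Their median depth was 5664, 3471 and 6260 UMIs. The stages shared 13 to 17 cell barcodes with each other. UMIs of Y-linked genes numbered 0 at E11.5, 1268 by E14.5 and 1977 at E16.5, and the part of embryo sex in the differences between stages was not tested. Each cell was given a lineage from the markers of the cell types in which it held a UMI, none of them a gene described here. Epithelium was called in 6 cells at E11.5, 710 by E14.5 and 1495 at E16.5, and mesenchyme in 5123, 4416 and 2420. Smaller groups were endothelium (59, 138 and 108 cells) and immune cells (50, 118 and 24). Cells with markers of several lineages (87, 246 and 236) were kept apart. At the minimum of 3 markers lay 161 of the epithelial cells at E14.5, then 116 at E16.5, and 954, 381 and 59 of the mesenchymal cells. The median epithelial cell held 0 mesenchymal markers at E14.5, then 1 at E16.5, and the median mesenchymal cell held 0 epithelial markers at each stage. *Dcn*, 1 of the 10 mesenchymal markers, was at 121% to 201% of its mesenchymal level in 4 of the 6 epithelial clusters described for E16.5. With 6 cells at E11.5, the epithelium of that stage is given by counts alone.

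Levels are CPM, the UMIs of a gene per 1e6 UMIs summed over the cells of a lineage, with exact Poisson 95% intervals. Folds are ratios of CPM with exact 95% intervals, and shares of cells have exact Clopper-Pearson intervals. All intervals cover counting error only. The 3′ libraries give 1 count per captured molecule whatever the length of the transcript, but genes may be captured unequally.

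**Figure D1:**
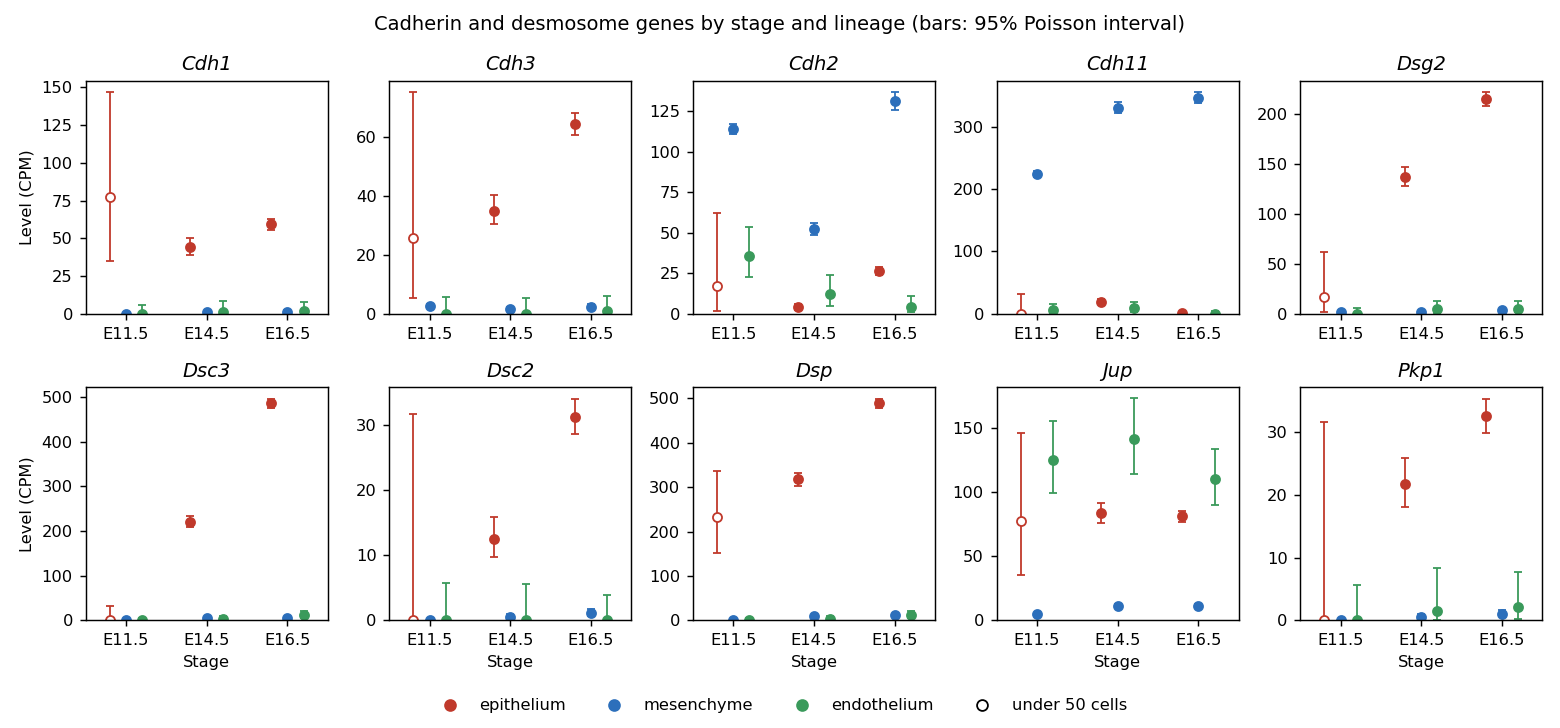
Levels of the 10 genes (CPM, linear axes) in epithelium, mesenchyme and endothelium of each stage, as points with 95% intervals from counting. *Cdh1*, *Cdh3* and the desmosomal genes stand high in epithelium, *Cdh11* and *Cdh2* in mesenchyme, and *Jup* is also high in endothelium, at 111 to 142 CPM.

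In the epithelium of the incisor bud, desmosomal transcripts outnumbered those of the classical cadherins. At E14.5 *Dsp*, which ties desmosomes to keratin, stood at 317 CPM (interval 303 to 332, 1800 UMIs) and at E16.5 at 489 (478 to 499, 8264 UMIs). *Dsc3*, a desmocollin of basal epithelia, stood at 220 (208 to 233) and 486 (475 to 496). *Dsg2*, the widespread desmoglein, stood at 137 (128 to 147) and 215 (208 to 222). In this order of the desmosomal genes each neighbour was set apart by its interval at E14.5, while *Dsp* and *Dsc3* overlapped at E16.5. *Jup*, which serves both desmosomes and classical cadherins, followed at 83.7 CPM (76.4 to 91.6) and 81.4 (77.2 to 85.9). *Pkp1*, a plaque protein of stratified epithelia, was at 21.7 (18.0 to 25.9) and 32.5 (29.9 to 35.4). *Dsc2*, the widespread desmocollin, was at 12.5 (9.78 to 15.8) and 31.2 (28.6 to 34.0). Intervals of *Pkp1* and *Dsc2* overlapped at E16.5 and not at E14.5.

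Of the classical cadherins, *Cdh1* and *Cdh3* were close to each other in the epithelium. *Cdh1* was at 44.6 CPM (39.3 to 50.4) at E14.5, then 59.2 (55.6 to 63.0) at E16.5, and *Cdh3* was at 35.1 (30.4 to 40.3) and 64.4 (60.6 to 68.3). The intervals of the 2 levels overlapped at each stage, and the higher was *Cdh1* at E14.5 and *Cdh3* at E16.5. Taken as shares of the classical cadherin UMIs, however, they were apart at E14.5. *Cdh1* then held 43.03% (38.98 to 47.14) and *Cdh3* 33.84% (30.02 to 37.83), while their share intervals at E16.5 overlapped. The mesenchymal cadherins changed places: *Cdh11* was at 19.7 (16.3 to 23.8, 112 UMIs) and then 1.66 (1.10 to 2.39, 28 UMIs), and *Cdh2* at 4.23 (2.71 to 6.30, 24 UMIs) and then 26.3 (23.9 to 28.9, 445 UMIs).

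In the 6 epithelial cells of E11.5, *Dsp* had 27 UMIs in 4 cells and *Cdh1* had 9 UMIs in 5 cells. *Jup* also had 9 UMIs in 5 cells, *Cdh3* had 3 in 2 cells, *Cdh2* had 2 in 2 cells and *Dsg2* had 2 in 1 cell. *Cdh11*, *Pkp1*, *Dsc2* and *Dsc3* had 0, in a group of 116416 UMIs. Transcripts of the plaque genes *Dsp* and *Jup* and of E-cadherin were thus seen in these few cells. Those of the plaque gene *Pkp1* and of the desmocollins were not seen, which allows up to 31.7 CPM for each. This limit lies above the E14.5 epithelial levels of *Pkp1* (21.7 CPM) and *Dsc2* (12.5 CPM). It lies below that of *Dsc3* (220 CPM), so depth alone does not cover the absence of *Dsc3* in these few cells.

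In the mesenchyme *Cdh11* was the most abundant of the 10 genes at every stage, at 224 CPM (220 to 229) at E11.5, 330 (322 to 339) by E14.5 and 346 (338 to 355) at E16.5. *Cdh2* came next at 114 (111 to 117), 52.3 (48.9 to 55.8) and 131 (126 to 137), so it was lowest at the middle stage. The remaining 8 genes stayed at or below 11.7 CPM. *Jup* was at 4.61, 10.9 and 11.1 CPM and *Dsp* at 0.858, 9.15 and 11.7 CPM, the highest of these at the later stages, while at E11.5 *Cdh3* followed *Jup* at 2.77 CPM. *Cdh1* was at 0.123, 1.33 and 1.60 CPM, and *Pkp1* had 0 UMIs among 40811252 at E11.5, which allows up to 0.0904 CPM.

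Shares of cells with a UMI were also compared at equal depth. When each cell was thinned to 2000 UMIs, which left out 50 of the 710 epithelial cells at E14.5, then 87 of the 1495 at E16.5, a *Dsp* UMI was held by 42.4% of epithelial cells (38.6 to 46.3) at E14.5, then 51.1% (48.4 to 53.7) at E16.5. Without thinning the shares were 69.0% and 79.8%, at median depths of 5004.5 and 7153 UMIs per cell. The background in mesenchyme was 1.49% and 1.81% thinned, and 3.33% and 7.27% unthinned, at medians of 3289.5 and 5900 UMIs. *Dsc3* was held by 34.5% and 54.8% of thinned epithelial cells, *Dsg2* by 24.5% and 31.4%, and *Jup* by 12.6% and 12%. Mesenchymal background for *Dsc3* was 0.864% and 1.09%, and for *Dsg2* 0.445% and 0.588%. *Cdh1* was seen in 7.12% and 9.02% of thinned epithelial cells, against 0.236% and 0.294% of mesenchymal ones, so most epithelial cells held no *Cdh1* UMI at this depth. *Cdh11* was seen in 34.9%, 44.8% and 44.0% of thinned mesenchymal cells, in the order of the stages. In thinned epithelial cells *Cdh11* fell from 4.55% (3.09 to 6.43) to 0.142% (0.0172 to 0.512), against a background of 2.68% (0.556 to 7.63) in thinned immune cells at E14.5, which the first share did not exceed beyond counting error and the second lay below. By level, E14.5 epithelium at 19.7 CPM (16.3 to 23.8) was above the immune cells at 7.20 (2.64 to 15.7). The endothelium of that stage was at 9.05 CPM (3.32 to 19.7, 6 UMIs), which overlaps the epithelial interval. *Cdh2* in thinned epithelial cells went from 1.36% (0.625 to 2.57) to 4.47% (3.46 to 5.69). The endothelial background at E16.5 was 1.94% thinned (0.236 to 6.84), which overlaps, and 3.70% unthinned (1.02 to 9.21) at a median of 5872.5 UMIs, below the 14.6% (12.9 to 16.54) of unthinned epithelial cells.

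The first comparison set epithelium against mesenchyme within a stage. All 10 genes were past a 4-fold difference at both stages: *Cdh1*, *Cdh3* and the 6 desmosomal genes were higher in epithelium, and *Cdh2* and *Cdh11* were lower. Across the 11362 genes with at least 50 counts at E14.5, 4.11% were 4-fold higher and 6.51% 4-fold lower, and at E16.5 the shares among 12512 genes were 5.47% and 6.67%. The median log2 fold of the 10 genes was 4.91 at E14.5, then 4.84 at E16.5, against 0.01 and 0.07 for all genes. Some genes reached the minimum count only through the lineage where they were higher. These were *Cdh1*, *Cdh3*, *Pkp1* and *Dsc2* at both stages, *Dsg2* and *Cdh2* at E14.5 and *Cdh11* at E16.5. The 10 genes are also well known as epithelial or mesenchymal, so these counts describe the contrast and do not test it.

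Among the cadherins higher in epithelium, *Cdh1* stood 33.5-fold (21.8 to 53.8) over mesenchyme at E14.5, then 37.1-fold (25.5 to 56.1) at E16.5, and *Cdh3* 20.9-fold (14.1 to 32.0) and 26.3-fold (19.4 to 36.5). *Dsg2* and *Dsc3* had the widest contrasts: *Dsg2* stood at 56.5-fold (41.4 to 79.0) and 59.8-fold (46.7 to 78.0), and *Dsc3* at 48.7-fold (38.7 to 62.1) and 83.5-fold (68.7 to 103). *Dsc2* stood at 27.0-fold (13.0 to 65.0) and 27.4-fold (17.6 to 45.2). Of these 5 cadherins, only *Dsc3* had intervals at the 2 stages that did not overlap. In the plaque, *Dsp* was 34.7-fold (29.5 to 41.1) and 41.8-fold (36.4 to 48.3) higher and *Pkp1* 37.5-fold (19.7 to 80.1) and 30-fold (19 to 50.3). *Jup* was the least restricted of the desmosomal genes, at 7.69-fold (6.48 to 9.16) and 7.33-fold (6.30 to 8.56). In the other direction, *Cdh11* was 16.7-fold (13.9 to 20.4) higher in mesenchyme at E14.5, then 209-fold (145 to 315) at E16.5. *Cdh2* was 12.4-fold (8.25 to 19.4) and 4.99-fold (4.51 to 5.54) higher in mesenchyme. With 10 CPM added to both lineages, *Cdh3*, *Pkp1* and *Dsc2* were below 4-fold at E14.5, at 3.86, 2.99 and 2.15.

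**Figure D2:**
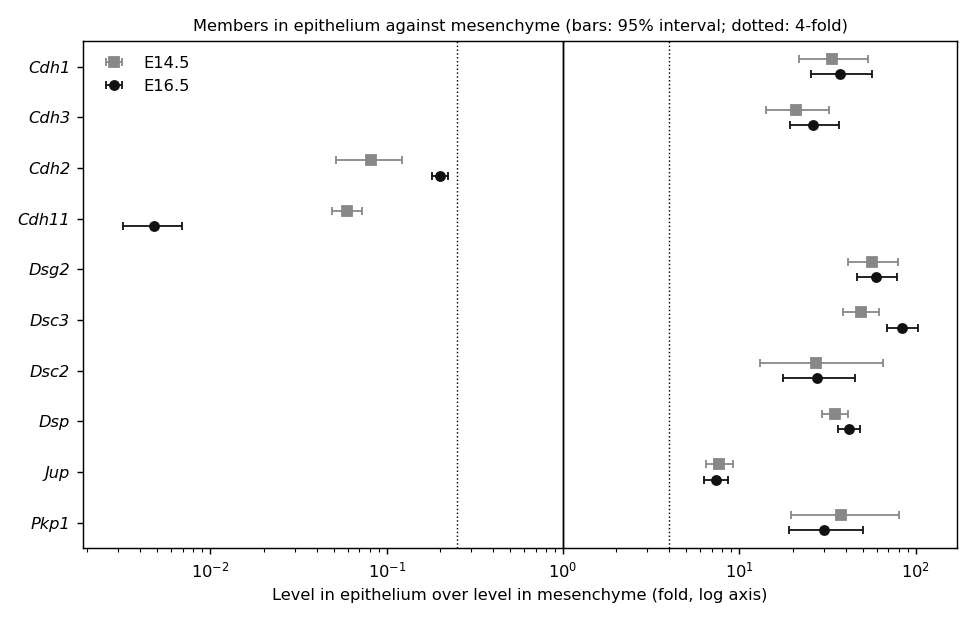
Fold of the level in epithelium over that in mesenchyme (log axis) at E14.5 (squares) and E16.5 (circles), with 95% intervals; dotted lines mark 4-fold. *Dsc3* reaches 83.5-fold at E16.5, *Jup* stays near 7-fold, and *Cdh11* lies at 0.0598 and then 0.00478.

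The low levels of epithelial genes in mesenchyme were set beside those of the epithelial markers that served for the calls. In E14.5 mesenchyme *Krt14*, *Krt5*, *Krt17* and *Epcam* stood at 2.59%, 2.84%, 2.57% and 2.27% of their epithelial levels. *Dsp* stood at 2.88% (2.43 to 3.39), *Cdh1* at 2.99% (1.86 to 4.58), *Pkp1* at 2.67% (1.25 to 5.08), *Dsc3* at 2.05% (1.61 to 2.58) and *Dsg2* at 1.77% (1.27 to 2.42). *Dsc2* stood at 3.70% (1.54 to 7.69), a wide interval that held the values of these markers. At E14.5 these members were thus near the keratins, while 2 members had higher values. *Cdh3* was at 4.79% (3.12 to 7.09) and *Jup* at 13.0% (10.9 to 15.4), and at E16.5 at 3.81% (2.74 to 5.17) and 13.6% (11.7 to 15.9), when *Krt14* was at 2.60% (2.28 to 2.94) and *Epcam* at 4.68% (4.21 to 5.18). At E14.5 the *Cdh3* interval overlapped that of *Krt5* (2.36 to 3.40). It lay above those of *Krt14* (2.26 to 2.96), *Krt17* (2.29 to 2.88) and *Epcam* (1.97 to 2.60). At E16.5 the *Cdh3* interval overlapped those of *Krt14* and *Epcam*. The *Jup* interval lay above these markers at both stages. At E16.5 *Dsc3* was at 1.20% (0.975 to 1.46) and *Dsg2* at 1.67% (1.28 to 2.14), below *Krt14*. The intervals of *Dsp* (2.39%), *Cdh1* (2.70%), *Pkp1* (3.33%) and *Dsc2* (3.65%) overlapped that of *Krt14*. For 8 of the 10 genes the mesenchymal level is therefore given without a reading of its source, and the part of free RNA or of mixed cells was not tested.

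The transcripts of the 4 classical cadherins together gave each lineage a makeup. In epithelium *Cdh1* and *Cdh3* held 76.9% (73.2 to 80.2) of the 588 cadherin UMIs at E14.5, then 81.5% (80.0 to 83.0) of 2562 at E16.5. The rest turned over: *Cdh11* held 19.0% (16 to 22.5) and then 1.09% (0.727 to 1.58), and *Cdh2* held 4.08% (2.63 to 6.01) and then 17.4% (15.9 to 18.9). In mesenchyme *Cdh11* held 65.7% (64.9 to 66.5) of 13923 UMIs at E11.5, 85.7% (84.8 to 86.5) of 6661 by E14.5 and 71.9% (70.9 to 72.8) of 8451 at E16.5. *Cdh2* held the complement, at 33.4%, 13.6% and 27.3%, and *Cdh1* with *Cdh3* held 0.848%, 0.781% and 0.840%.

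**Figure D3:**
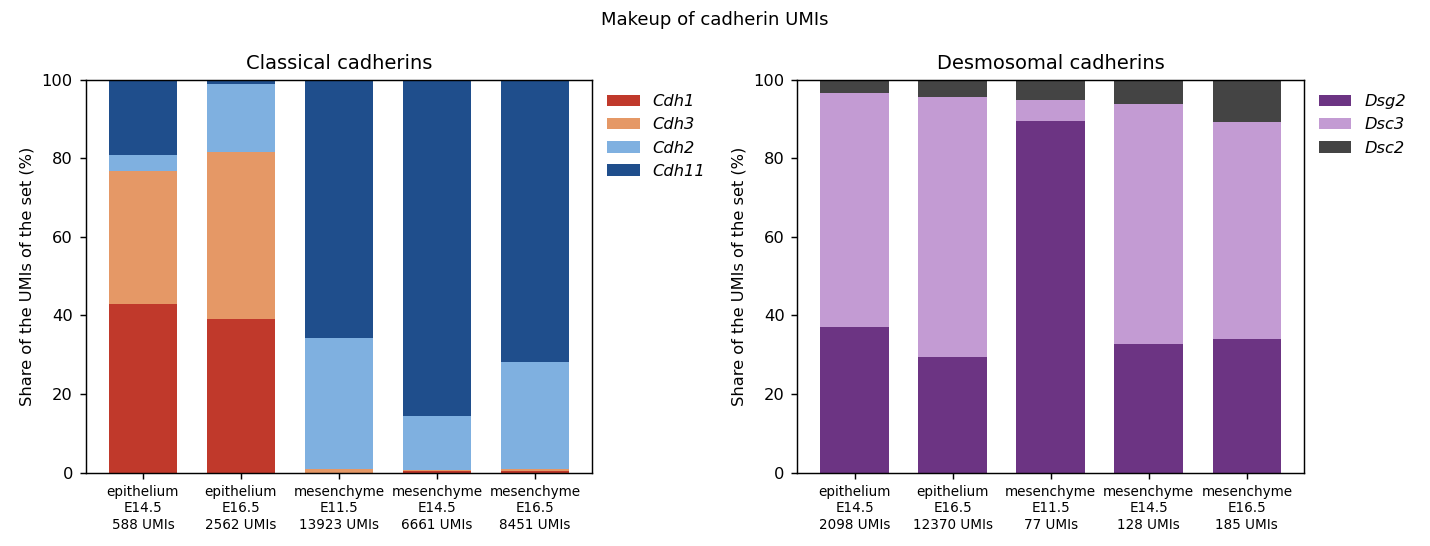
Share (percent) of the UMIs of *Cdh1*, *Cdh3*, *Cdh2* and *Cdh11* held by each gene in epithelium and mesenchyme, by stage. In epithelium the *Cdh11* part shrinks from 19.0% to 1.09% and the *Cdh2* part grows from 4.08% to 17.4%; in mesenchyme *Cdh11* holds 65.7% to 85.7%.

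Of the 3 desmosomal cadherins, *Dsc3* held 59.5% (57.3 to 61.6) of 2098 UMIs in epithelium at E14.5, then 66.4% (65.5 to 67.2) of 12370 at E16.5. *Dsg2* held 37.1% (35.1 to 39.2) and 29.4% (28.6 to 30.2), and *Dsc2* held 3.38% (2.65 to 4.25) and 4.27% (3.92 to 4.64). The desmocollin share thus rose against that of the desmoglein beyond counting error. In mesenchyme the makeup differed at E11.5, where *Dsg2* held 69 of 77 UMIs (89.6%, 80.6 to 95.4). Later it held 42 of 128 and 63 of 185 UMIs. These shares of 32.8% (24.8 to 41.7) and 34.1% (27.3 to 41.4) overlap its epithelial share of the same stage. The mesenchymal shares of the desmocollins also overlapped the epithelial ones at E14.5, but not at E16.5. In E16.5 mesenchyme *Dsc2* held 10.8% (6.73 to 16.2), above its epithelial share, and *Dsc3* held 55.1% (47.7 to 62.4), below it.

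Between stages, the epithelium gained transcripts of *Cdh2* and the desmocollins and lost those of *Cdh11*. From E14.5 to E16.5, 3 of the 10 genes were at least 2-fold higher, where 7.41% of 11369 genes were, and 1 was at least 2-fold lower, where 2.26% were. The median log2 fold was 0.63 for the 10 genes and 0.16 for all genes. *Cdh2* stood 6.22-fold higher (4.13 to 9.81), *Dsc2* 2.5-fold (1.94 to 3.24) and *Dsc3* 2.21-fold (2.08 to 2.34). *Cdh11* stood 11.9-fold lower (7.82 to 18.7). In epithelium *Cdh2* had 24 UMIs at E14.5 and 445 at E16.5, and *Cdh11* had 112 and 28. Both genes thus reached the minimum count only through the stage where they were higher. The folds of the other 6 genes lay within 2-fold: *Cdh3* at 1.83 (1.58 to 2.14), *Dsg2* at 1.56 (1.45 to 1.69), *Dsp* at 1.54 (1.46 to 1.62), *Pkp1* at 1.5 (1.23 to 1.84), *Cdh1* at 1.33 (1.16 to 1.53) and *Jup* at 0.973 (0.876 to 1.08). *Jup* was the only desmosomal gene whose interval held 1. Restricted to epithelial cells without a UMI of a mesenchymal marker, *Dsc3* was 1.80-fold higher, below the limit. In those cells *Cdh11* was at 21.1 CPM (15.7 to 27.8, 383 cells) at E14.5, then 1.31 (0.526 to 2.70, 730 cells) at E16.5, and *Cdh2* at 2.90 (1.17 to 5.98) and 23.2 (19.3 to 27.6), so the changes of both cadherins were as large there. When the lineage was called by cluster instead of by cell, *Cdh11* was at 0.445 of its E14.5 level. With thinned cells *Dsc2* was 1.5-fold higher.

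Of the 2 cadherins abundant in mesenchyme, *Cdh2* differed more between stages. It was 2.18-fold lower (2.03 to 2.34) at E14.5 than at E11.5 and 2.51-fold higher (2.33 to 2.72) at E16.5 than at E14.5. *Cdh11* was 1.47-fold higher (1.42 to 1.52) at E14.5 than at E11.5 and then 1.05-fold (1.01 to 1.09). Of the 7 genes with at least 50 counts in the first step, *Cdh2* was the 1 past 2-fold lower, where 11.1% of 12684 genes were. *Dsc3*, *Dsp* and *Jup* were past 2-fold higher, where 10.5% were, at 46.1-fold (17.3 to 173), 10.7-fold (7.36 to 15.9) and 2.36-fold (1.92 to 2.91). *Dsc3* had 4 UMIs at E11.5 and 78 at E14.5, and *Dsp* had 35 and 158. Both thus reached the minimum count only through the stage where they were higher. The epithelial markers moved in the same step: their summed level in mesenchyme was 3.97 CPM at E11.5, 64.2 by E14.5 and 94.2 at E16.5, with 10 of 11 detected at E11.5 and all 11 later. Their part in the folds of *Dsc3*, *Dsp* and *Jup* was not tested. In the second step *Cdh2* was the 1 of 8 genes past 2-fold higher, where 7.24% of 12128 genes were, and 0 of 8 were past 2-fold lower, where 2.27% were. With each cell weighted equally, *Cdh3* was also past 2-fold lower in the first step, at 0.499 of its E11.5 level against 0.606 (0.389 to 0.919) from summed counts.

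**Figure D4:**
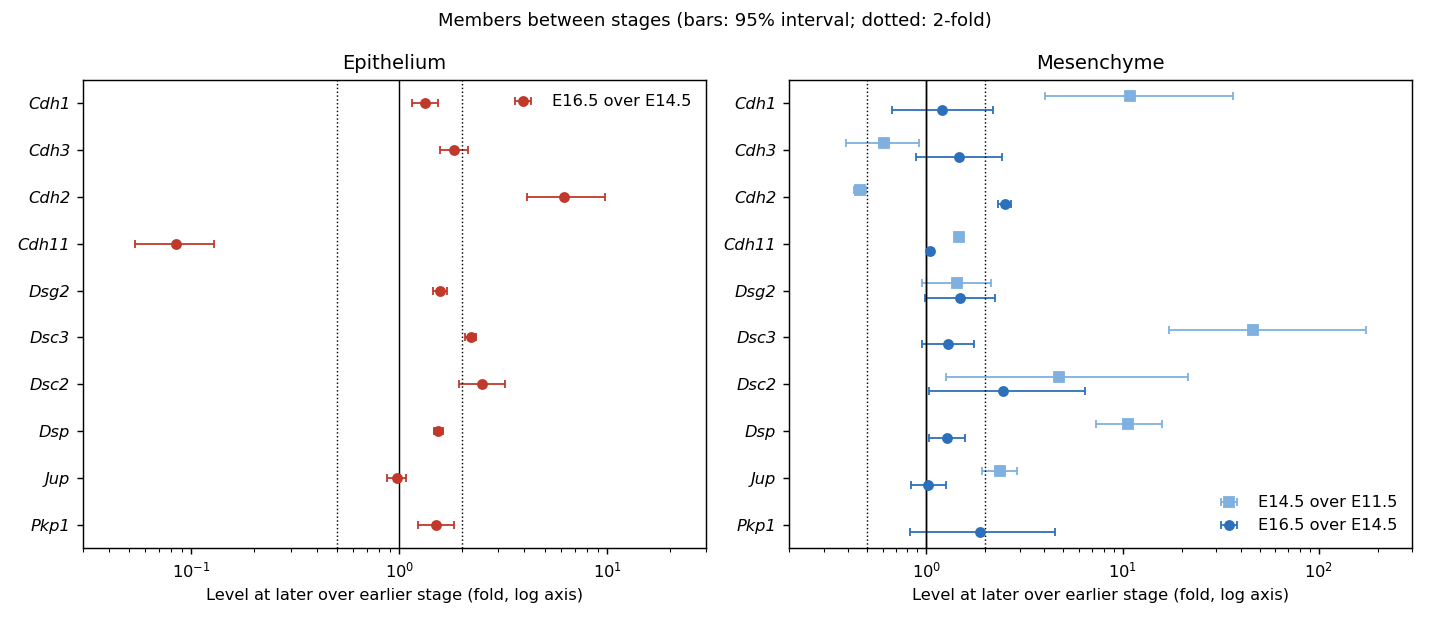
Fold of the level at the later stage over the earlier (log axes) in epithelium, E16.5 over E14.5, and in mesenchyme, E14.5 over E11.5 (squares) and E16.5 over E14.5 (circles), with 95% intervals; dotted lines mark 2-fold. *Cdh2* rises 6.22-fold and *Cdh11* drops to 0.0839 in epithelium, while mesenchymal *Cdh2* goes to 0.459 and back up by 2.51-fold; *Pkp1* has no point for the first mesenchymal step because it was at 0 UMIs at E11.5.

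The endothelium carried plakoglobin with few UMIs of the other desmosomal genes. *Jup* stood there at 125 CPM (99.5 to 156) at E11.5, 142 (115 to 174) by E14.5 and 111 (90.4 to 134) at E16.5, above its level in the epithelium of the same stage at E14.5 and E16.5 beyond the intervals. *Dsp* in endothelium was at 0, 2 and 11 UMIs, *Dsg2* at 0, 3 and 5, and *Dsc3* at 0, 2 and 11. *Dsc2* was at 0 at each stage, and *Pkp1* was at 0, 1 and 2 UMIs. Plakoglobin is known to bind VE-cadherin, the endothelial cadherin *Cdh5*, which stood at 1224 CPM in endothelium and 0.342 CPM in mesenchyme at E16.5. Against mesenchyme, *Jup* was 13.0-fold higher (10.1 to 16.8) at E14.5, then 9.96-fold (7.77 to 12.7) at E16.5, the 1 gene of 5 and of 6 tested past 4-fold higher, where 4.23% and 4.48% of genes were. *Cdh2* and *Cdh11* were past 4-fold lower at both stages, where 6.75% and 8.7% were. These 2 genes reached the minimum count only through the mesenchyme, where they were higher. *Cdh11* was 36.5-fold lower (16.8 to 99.5) at E14.5, and at E16.5 it had 0 UMIs in 108 endothelial cells.

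The mesenchymal cadherins were also measured in small groups. In glia, which are known to carry N-cadherin, *Cdh2* reached 502 CPM (366 to 672) in 7 cells at E11.5 and 670 (537 to 826) in 30 cells at E14.5, with 1 *Cdh11* UMI at each of these stages. In 23 muscle cells of E11.5 *Cdh2* was at 118 CPM (73.9 to 179) and *Cdh11* at 107 (65.5 to 166). In 35 mural cells of E16.5 they were at 191 (149 to 241) and 226 (180 to 281). The muscle and mural groups thus held both cadherins within overlapping intervals, while the glia held *Cdh2* nearly alone. The mural call did not leave out cells with mesenchymal markers, so the mural group is not set apart from mesenchyme.

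The epithelium was not uniform. Epithelial cells of a stage were clustered without the 10 genes, the related junction genes and the lineage markers, and the clusters are called by their leading genes. At E14.5 the levels of the 9 genes with at least 50 counts differed by at least 4-fold between the highest and lowest of 6 clusters, where 25.9% of 7921 genes did, and at E16.5 those of 6 of 9 did, where 21.3% of 10881 genes did. Those other genes include the ones the clusters were made from. At E14.5 the lowest cluster held 2 *Cdh1* UMIs and 0 of *Dsc2*, so the range of *Dsc2* is a bound, of at least 4.24-fold. At E14.5 the lowest for 7 of these 9 was a cluster of 61 cells led by *Dlx5*, *Tmsb15b2* and *Lxn*, which also had the lowest mitochondrial share (1.41%). Without it, 5 genes had a 4-fold range, where 14.6% of 7843 genes did, and without the cluster of the lowest mitochondrial share at E16.5 (2.45%) 4 of 9 did, where 15.3% of 10765 genes did.

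At E14.5 a cluster of 53 cells led by *Wif1*, *Shh* and *Fgf4*, signalling genes of the kind that tooth signalling centres are known for, stood apart in cadherins. *Cdh11* was at 93.6 CPM (66.3 to 129, 38 UMIs in 21 cells) there and at 6.03 to 20.4 in the other 5 clusters. That is 28.3% of the mesenchymal level (20 to 39). Of the 10 mesenchymal markers, *Col1a1*, *Prrx2*, *Twist1*, *Postn* and *Lum* had 0 UMIs in the cluster. *Prrx1*, *Col3a1*, *Col1a2* and *Pdgfra* were at 0.363%, 1.26%, 1.47% and 2.59% of their mesenchymal levels, from 1 to 6 UMIs each. *Dcn*, with 5 UMIs, was at 17.4% (5.63 to 40.6), which overlaps the share of *Cdh11*. The same cluster had the highest *Cdh3* (91.2), *Dsc3* (466, 402 to 537), *Pkp1* (73.9) and *Dsc2* (54.2), and its *Cdh1* was at 29.6 CPM, near the 28.6 of the cluster led by *Cxcl10*, *Sp5* and *Etv1*. It held 38 of the 112 epithelial *Cdh11* UMIs of the stage.

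*Dsp* was highest in another cluster at E14.5. In 163 cells led by *Krt15*, *Krt6a* and *Meis2*, keratin genes among them, *Dsp* was at 523 CPM, the highest of the stage, *Jup* at 141 (119 to 166) and *Dsg2* at 176. The *Wif1* cluster overlapped in *Jup* (138, 104 to 179), was near in *Dsg2* (177), and had *Dsp* at 239. *Pkp1* was at 40.8 in the *Krt15* cluster, below the *Wif1* cluster. In 157 cells led by *Crabp1*, *Sema3e* and *Odam*, *Cdh1* was at 51.3 CPM while *Pkp1* was at 4.22 and *Cdh2* at 0.603 (1 UMI), the lowest of the stage for both. The cluster of 122 cells led by *Ntrk2*, *Dcn* and *Nrxn3* had the highest *Cdh1*, at 57.8. Its summed mesenchymal markers were at 347 CPM, the most of the 6 clusters, with *Dcn* at 178% of its mesenchymal level, and its *Cdh11* was at 18.7 CPM.

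At E16.5 *Cdh2* had the widest range of the 10 genes. In 324 cells led by *Stmn2*, *Slc40a1* and *Vwde*, with the ameloblast gene *Ambn* also among the leading genes, *Cdh2* was at 96.4 CPM (85.6 to 108). In 233 cells led by *Pcp4*, *Crabp1* and *Sema3e* it was at 2.38, a range of 40.4-fold (20.3 to 94.6). In the *Stmn2* cluster *Cdh2* stood at 73.4% of its mesenchymal level, where *Col1a1* stood at 0.637% and *Prrx1* at 0.105%. Of the other mesenchymal markers there, *Dcn* stood at 136%, *Col1a2* at 8.34% and *Pdgfra* at 4.24%, and the remaining 5 were below 1%. Their part in the *Cdh2* level was not tested. *Cdh3* was highest in the same cluster, at 117 CPM (105 to 130), and *Cdh1* was at 36.0. *Cdh1* was highest in 287 cells led by *Angpt1*, *Maf* and *Chchd10*, at 125 CPM (112 to 139), where *Cdh2* was at 8.21 and *Cdh3* at 55.3. The clusters highest in E-cadherin and in P-cadherin with N-cadherin were therefore different.

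Desmosomal genes at E16.5 peaked together in 67 cells led by *Enpp2*, *Jph4* and *Hes1*. *Dsp* was at 962 CPM, *Dsc3* at 901, *Dsg2* at 383 and *Jup* at 241 there, and *Pkp1* and *Dsc2* were at 142 and 140, so all 6 were highest in this cluster. Its *Cdh3*, at 38.1 CPM, was the lowest of the stage. The lowest *Dsp* (166), *Jup* (42.4), *Dsg2* (116), *Dsc2* (14.4), *Dsc3* (254) and *Cdh1* (20.1) were in 214 cells led by *AY036118*, *Aprt* and *Snrpa*, the cluster with the lowest mitochondrial share of the stage (2.45%). Cells led by the histone genes *Hist1h1b*, *Hist1h2ap* and *Hist1h2ae* (370 cells) lay between, with *Dsp* at 448 and *Cdh1* at 48.7. *Cdh11* was at or below 3.47 CPM in every E16.5 cluster.

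**Figure D5:**
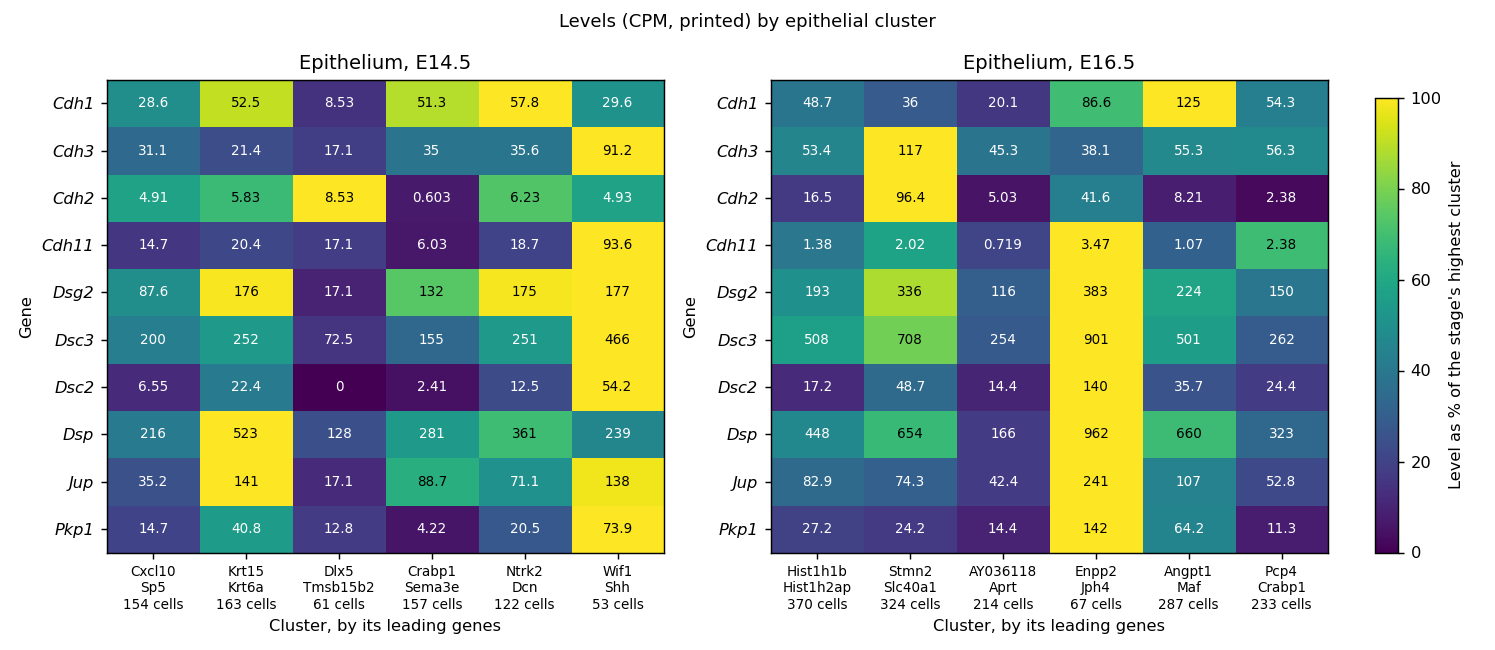
Levels of the 10 genes (CPM, printed) in the 6 epithelial clusters of E14.5 and of E16.5, each labelled by its first leading genes and its number of cells. Colour gives the level of a gene as a percent of its highest cluster in the stage. *Cdh11* is high in the *Wif1* cluster of E14.5 (93.6), *Cdh2* in the *Stmn2* cluster of E16.5 (96.4) and the 6 desmosomal genes in the *Enpp2* cluster of E16.5.

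Within the mesenchyme *Cdh11* was less uneven than *Cdh2*. *Cdh11* ranged from 169 to 269 CPM over 5 clusters at E11.5, from 253 to 356 over 6 at E14.5 and from 253 to 488 over 7 at E16.5, a widest range of 1.93-fold (1.77 to 2.10). Finer clusters, at Leiden resolution 0.8, widened it to 3.38-fold, 2.79-fold and 2.40-fold by stage. *Cdh2* ranged from 78.6 to 147 CPM at E11.5 and from 25.5 to 116 at E14.5. At E16.5 it went from 17.4 in 296 cells led by *Bmp3*, *Dkk2* and *Calca* to 184 in 327 cells led by *Pdzrn4*, *Sfrp4* and *Slc1a3*, a range of 10.6-fold (7.18 to 16.1). Over the mesenchymal clusters *Dsg2* and *Cdh3* were the 2 of 5 genes with a 4-fold range at E11.5, where 4.98% of 11806 genes had one. *Cdh2* was the 1 of 5 at E14.5, where 17.2% of 10532 did, and the 1 of 6 at E16.5, where 22.9% of 11043 did. At E11.5 the cluster with the lowest *Cdh2* was led by *Pax3*, *Gm43376* and *Cxcl14* and had the highest *Cdh11*. The highest *Cdh11* of E16.5, 488 CPM, was in 188 cells led by *Plac8*, *Smpd3* and *Ifitm5*.

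Traces of epithelial genes in mesenchyme were uneven as well. At E11.5, 1146 cells led by *Plagl1*, *Cited1* and *Foxf1* held 41 of the 69 *Dsg2* UMIs, at 4.95 CPM (3.55 to 6.71) against 0.445 to 1.41 in the other 4 clusters. *Cdh3* was also highest there, at 4.95 CPM against 1.11 to 2.94. The summed epithelial markers of that cluster were at 5.07 CPM, below the 7.95 of the cluster led by *Igfbp5*, *Hba-a1* and *Hba-a2*, where *Dsg2* was at 0.454. At E16.5 *Cdh3* reached 10.1 CPM in 190 cells led by *Aspn*, *Pax3* and *Gpx3*, against 1.16 to 3.74 in the other 6 clusters.

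Pairs of genes were also counted in the same cells, each thinned to 2000 UMIs. *Dsp* and *Dsc3* were seen together in 32.2% of epithelial cells (29.7 to 34.7) at E16.5, against 28.0% from the product of the single shares, and in 16.52% (13.8 to 19.6) against 14.7% at E14.5. *Dsc3* and *Dsg2* were seen together in 19.7% (17.6 to 21.8) against 17.2% at E16.5. For these 2 pairs at E16.5 the product lay below the interval. *Cdh1* and *Cdh3* were together in 1.21% (0.705 to 1.93) against 1.19% at E16.5. In mesenchyme *Cdh2* and *Cdh11* were together in 7.55% (6.81 to 8.33), 4.45% (3.82 to 5.15) and 8.65% (7.55 to 9.85) of cells against products of 7.01%, 4.22% and 8.78%, so the shares of these 2 cadherin pairs did not leave their products beyond counting error.

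Over the 11 groups of a stage and lineage with at least 50 cells, the pattern of log2 CPM with 10 CPM added was compared with that of 11919 genes, as a description over groups that share libraries. Epithelium was among these groups only at E14.5 and E16.5. A high r between genes of the epithelium thus rests mostly on those groups, and its rank does not set them apart from other epithelial genes. The genes most like *Cdh1* were *Dsg2* (Pearson r 0.999) and *Esrp1* (0.998), a marker used for the calls. *Dsg2* and *Pkp1* were in turn most like each other and *Cdh1*, at 0.996 to 0.999. *Dsp* was close to *Dsc3*, at 0.994, and most like *Dsc3* were *Fxyd3*, also a marker of the calls, and *Pkp1*, at 0.999 and 0.996. *Cdh3* was closest to *Epha1* and *Cyp26a1* (0.995 and 0.993), and *Dsc2* to *Serpinb1b* and *Myh14* (both 0.999). The less epithelial members had other neighbours. *Jup* was closest to *Ammecr1* and *Cd151* (0.978 and 0.964), *Cdh11* to *Epha3* and *Hand2* (0.984 and 0.980), and *Cdh2* to *Sgcd* and *Tram1l1* (0.947 and 0.935).

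Other genes of the junctions, taken from lists, were compared in the same way. Of 11 further desmosome genes, 4 had enough counts at E14.5 and 4 of the 4 were past 4-fold higher in epithelium, where 4.11% of all genes were, and at E16.5 it was 8 of 8 tested, where 5.47% were. A gene low in mesenchyme enters the count only through the epithelium, where it is high, so these counts do not speak for the untested members. *Perp*, a tetraspan protein of desmosomes, led in UMIs at 62.9-fold (41.4 to 100) and 40.4-fold (33.6 to 49.1). The plakophilin *Pkp3* stood at 19.1-fold and 24.7-fold and the cornified envelope gene *Ppl* at 16.2-fold and 38.7-fold. From E14.5 to E16.5 in epithelium, 4 of 8 were past 2-fold higher, where 7.41% of all genes were, namely *Perp* at 3.19-fold (2.91 to 3.52) and the desmogleins *Dsg3* at 3.03-fold (2.16 to 4.35), *Dsg1a* at 5.66-fold (2.79 to 13.4) and *Dsg1b* at 6.29-fold (3.11 to 14.8), the last 2 being near-identical copies between which reads may be split. At E14.5 *Dsg3*, *Dsg1a* and *Dsg1b* had too few counts for the test between lineages. They entered this count only through E16.5, where they were higher, so it does not speak for the list.

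The catenins, which link cadherins to actin, were shared between the lineages. Of 9 tested genes of the catenin and p120 family list, 1 (*Ctnnd2*) was past 4-fold higher in epithelium at each stage, where 4.11% and 5.47% of all genes were, and 0 were lower. *Ctnnb1*, which encodes beta-catenin, was at 379 CPM in epithelium and 205 in mesenchyme at E14.5, a fold of 1.84 (1.75 to 1.95), and at 465 and 279 CPM at E16.5. *Ctnna1* was 1.27-fold and 1.23-fold, the epithelial over the mesenchymal level. *Ctnnbip1*, which is on the list but is not itself a catenin, was 1.54-fold and 2.72-fold. Of the nectins and afadin, 2 of 5 were past 4-fold higher in epithelium at each stage, beside the same shares of all genes. *Nectin4* stood at 58.7-fold and 53.5-fold, *Afdn* at 4.66-fold at E14.5, then 2.59-fold, *Nectin1* at 2.90-fold and 5.16-fold, *Nectin3* at 1.26-fold and 1.41-fold, and *Nectin2* at 1.92-fold and 1.27-fold.

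Further cadherins were few. Of 16, 5 had enough counts at E14.5, with *Cdh13* 6.61-fold higher in epithelium and *Cdh10* past 4-fold lower, where 4.11% and 6.51% of all genes were. At E16.5, 3 were tested, with *Cdh6* 19.7-fold higher (16 to 24.4), where 5.47% of all genes were past the fold, and *Cdh13* and *Cdh24* at 1.56-fold and 1.74-fold. *Cdh6* was at 38.3 CPM in epithelium at E14.5, then 110 at E16.5, 2.87-fold (2.49 to 3.32) higher, and in mesenchyme it was past 2-fold lower at each step, at 32.6, 12.2 and 5.59 CPM. Its level thus rose in epithelium while it fell in mesenchyme.

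Of 7 genes known as repressors of E-cadherin, 6 were tested and 4 (*Snai1*, *Zeb1*, *Zeb2* and *Twist2*) were past 4-fold lower in epithelium at each stage, where 6.51% and 6.67% of all genes were. These 4 had under 50 counts in the epithelium of E14.5 and E16.5 together. They entered the count only through the mesenchyme, where they were higher, so it does not speak for the list. *Zeb2* was 75.7-fold (50.4 to 119) and 253-fold (145 to 490) lower and *Snai1* 45.2-fold (17.6 to 167) and 112-fold (64.2 to 218). *Snai2* and *Tcf4* were not past 4-fold: *Snai2* was at 45.4 CPM in epithelium and 45.1 in mesenchyme at E16.5, and *Tcf4* at 294 and 237. Of 8 epithelial regulators, 2 of 3 tested were past 4-fold higher at E14.5, where 4.11% of all genes were, then 6 of 7 at E16.5, where 5.47% were, and most of these too were tested only through their epithelial counts. *Grhl2* was at 37.9-fold (23.4 to 65.1) and 68.6-fold (34.6 to 160), *Esrp2* at 16.9-fold (8.24 to 39.1) at E14.5 and *Grhl1* at 9.34-fold (5.13 to 18.6) at E16.5. *Tfap2c* was the exception at 6.77-fold (4.97 to 9.46) and 4.95-fold (3.89 to 6.37) higher in mesenchyme.

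Within the mesenchyme, from E11.5 to E14.5, 10.5% of all genes were past 2-fold higher and 11.1% lower. In this step 0 of the further desmosome genes had enough counts, and 1 of 9 genes of the catenin list was past 2-fold higher and 2 were lower. Of 8 further cadherins, 3 were higher, among them *Cdh10* at 3.4-fold (2.65 to 4.36), and 4 were lower. Of 6 repressors, *Zeb2* was 6.25-fold higher (5.94 to 6.58) and *Twist2* was past 2-fold lower, and 0 of 4 nectin genes were past 2-fold. Of 2 regulators, *Tfap2c* was 3.85-fold higher (3.45 to 4.29) and *Elf3* was lower. From E14.5 to E16.5, where 7.24% of all genes were past 2-fold higher, *Snai1* was 2.5-fold higher (2.27 to 2.77), *Twist2* was also past 2-fold higher, and *Perp*, the 1 further desmosome gene tested, was 4.97-fold higher (3.16 to 8.14) beside the rise of the epithelial markers given above. In endothelium *Cdh5* and *Cdh13* were past 4-fold higher than in mesenchyme at both stages, where 4.23% and 4.48% of all genes were, with *Cdh13* at 11.9-fold (8.20 to 17.1) at E16.5.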

How the data were processed

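UMI counts per gene and cell were deposited by the authors as 1 matrix per stage, made with Cell Ranger 4.0.0 on the mm10 genome from 3′ libraries sequenced on an Illumina NovaSeq, and were not normalized. The study's filter was used, which keeps cells of 700 or more genes with no more than 20% mitochondrial UMIs. Totals were 49264075, 31670249 and 42895059 UMIs in 8708, 8192 and 5719 barcodes, in the order of the stages.

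A cell was given the lineage with the largest part of its marker list detected, if at least 3 markers had a UMI and no other lineage with at least 3 reached more than a share of 0.5 of that part; otherwise it was called mixed or uncalled. Cells with at least 20% globin UMIs were called erythroid. Mural cells were called outside this rule, from at least 3 mural markers whatever the number of mesenchymal markers. Where a lineage other than mesenchyme also had at least 3 markers, such a cell was called mixed. The markers were listed in the plan, the rule that turns them into calls was made with the data in view, and the 10 genes and all lists were chosen with earlier results of these data known. Doublets were treated by this mixed call.

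Counts were summed over the cells of a lineage. A gene was tested against the fold (4 between lineages, 2 between stages) if it had at least 50 counts in the 2 groups together, and the fold alone decided, without a p-value. Where 1 group was at 0 it was set to 3 counts and the fold is a bound, and no fold was given where both groups were at or under 3 counts. Ranges over clusters treat a cluster at 0 in the same way and also rest on lows of 1 to 3 UMIs. Clusters were made with the Leiden algorithm at resolution 0.4 on 20 principal components of 2000 variable genes with 15 neighbours. Described by name are the 10 genes, of each list the counts past the fold with the 3 genes of most UMIs in epithelium and mesenchyme, the 3 leading genes of clusters, and for each of the 10 the 2 genes of highest Pearson r, of which 1 is not reported here; other genes were named after their values were seen. Positions come from GENCODE vM21 and promoters from RefSeq on GRCm38.p6, which is another annotation release than the authors counted on. RefSeq promoters matched 2 of the 10 genes.

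Python 3.11.15, numpy 2.4.6, scipy 1.17.1, pandas 2.3.3, scanpy 1.11.5, leidenalg 0.10.2, igraph 0.11.9 and matplotlib 3.10.9 were used. The steps were tested on simulated data: for epithelium over mesenchyme at E14.5 with 11377 genes tested, 100% of 100 genes raised 8-fold and 95% of 100 genes lowered 8-fold were called, and 0% of the unchanged. These counts were Poisson draws around a level shared by both lineages, without variation between cells, samples or libraries. The rates of the folds therefore cover counting error only and do not measure false calls in real data. Of simulated cells, 91.3% of 300 epithelial and 98.7% of 300 mesenchymal cells were called right, 0% were given another lineage, and 81.5% of 200 equal mixtures were called mixed. These cells were drawn from the summed profiles of the called cells, and the mixtures were drawn deeper than the epithelial cells. The rates therefore do not measure how well real cells, which vary within a lineage, were called. Alternatives changed the filter on cells, the call, doublets, scaling, the value added, the depth and the Leiden resolution. Leaving out cells with markers of the other lineage, and leaving out the epithelial cluster of the lowest mitochondrial share, were chosen after seeing the data.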

Additional observations from a re-analysis of the deposited data

How the results depend on the processing

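No paired analysis was possible because each stage was 1 pooled matrix whose cells cannot be assigned to the numbered samples. Over 15 alternative settings, 723 values were recomputed. A change of direction was looked for only in the folds of single genes that were past their limit, and 0 of those changed direction. The other values could only move or stay. Of the values of single genes and shares 484, and of the counts and cadherin shares 130, moved by less than their limits, and 85 and 24 moved by more. Where no cause is given, the cause was not tested.

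With 10 CPM added, which pulls low genes toward a fold of 1, the genes past 4-fold higher in epithelium at E14.5 were 5 in place of 8 and at E16.5 6 in place of 8 (*Pkp1* at 3.84 and *Dsc2* at 3.70), those past 2-fold higher in epithelium between stages were 2 in place of 3 (*Dsc2* at 1.83), those past 4-fold lower at E16.5 were 1 in place of 2, and in mesenchyme from E11.5 to E14.5 0 were past 2-fold higher and 0 lower. With cells thinned to 2000 UMIs, which leaves fewer counts, 0 of 9 tested genes were past 2-fold lower in epithelium between stages. *Cdh11* was not among the 9 because it fell under the minimum count. In thinned cells 1 gene was past 2-fold higher in mesenchyme from E11.5 to E14.5, *Cdh1* and *Cdh3* held 69.2% of epithelial cadherin UMIs at E14.5, and *Cdh11* held 64.4% and 84.8% in mesenchyme at E11.5 and E14.5. With lineages called by cluster, 4 genes were past 2-fold higher in mesenchyme from E14.5 to E16.5 in place of 1, *Cdh1* and *Cdh3* held 73.2% and 75.7% in epithelium, and *Cdh11* held 64.3% and 70.8% in mesenchyme at E11.5 and E16.5. The stricter call gave 67.6% for *Cdh11* at E11.5, and the mean of each cell's CPM gave 2 genes past 2-fold lower in mesenchyme from E11.5 to E14.5.

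The count of genes with a 4-fold range over clusters depended on the resolution. At 0.2 it was 3 and 2 in epithelium at E14.5 and E16.5, in place of 9 and 6, and 1, 0 and 0 in mesenchyme by stage, in place of 2, 1 and 1. At 0.8 it was 3 in mesenchyme at E14.5 and 3 at E16.5, and the counts of the other groups moved within their limits. Without the epithelial cluster of the lowest mitochondrial share it was 5 at E14.5 and 4 at E16.5. Depth limits what can be said of *Pkp1*, *Dsc2* and *Cdh1* in mesenchyme, each at or below 28 UMIs per stage, and of all genes in the 6 epithelial cells of E11.5.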
